A study of Danio rerio with 12 samples.

Results

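Expression of ddc (Entrez 406651) and cyp7a1 (Entrez 394148) was examined in RNA sequencing libraries of adult zebrafish kidney. These 2 of 30238 gene IDs were chosen by their symbols and selected on their measured levels in these libraries, which lay in 2 separate ranges, so those levels are a description and carry no test. The study compared the transcriptome of 3 wild-type kidney samples with that of 9 pdx1+/- ones, heterozygous for a pdx1 knockout, and the labels name no treatment. pdx1 encodes a homeobox factor of pancreas and beta cell development. Sex, age, family, batch and pooling are not given either, so a p-value here covers only how these samples scatter, which may be technical. Estimated counts summed to between 16041392 and 19483852 per library.

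The ddc gene encodes aromatic L-amino acid decarboxylase, which turns L-DOPA into dopamine and 5-hydroxytryptophan into serotonin with vitamin B6 as its cofactor. In mammals the proximal tubule of the kidney carries this enzyme and makes dopamine that acts on sodium excretion. The cyp7a1 gene encodes the cholesterol hydroxylase of the first and rate-limiting step of the classic bile acid pathway, which in mammals runs in the liver. The fish kidney holds nephrons, blood-forming tissue and steroid-making interrenal cells side by side. In such bulk RNA, fewer cells of a type and less RNA per cell cannot be told apart.

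Transcripts of ddc were either abundant or modest, with nothing in between. Levels were 135 CPM (count share on TMM-scaled library sizes) in wild-type replicate 1, 6391 CPM in replicate 2 and 197 CPM in replicate 3. Heterozygous replicates 1, 3, 4, 6 and 9 had 4851, 6469, 4332, 4988 and 5620 CPM of ddc. Heterozygous replicates 2, 5, 7 and 8 had 220, 111, 138 and 121 CPM. Each genotype thus had libraries in both ranges, 1 of 3 in wild type and 5 of 9 in pdx1+/- in the upper one, and the genotypes overlapped. The upper range spanned 1.49-fold from its lowest to its highest library and the lower range 1.97-fold. Between them lay a gap of 4.30 on the log2 CPM scale (prior count 2), which was 73.4% of the whole spread of the gene. The lowest upper library had 19.7 times the ddc of the highest lower library (exact 95% counting interval 19.1 to 20.4, which covers counting error only). Within each library, ddc ranked between 49 and 99 among all genes by TPM (transcript share, scaled for length) in the upper range. In the lower range its rank by TPM was between 1148 and 2602.

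Transcripts of cyp7a1 were present in the same 6 libraries and close to the detection limit in the others. The estimated counts were 4, 9224 and 7 in wild-type replicates 1 to 3. Heterozygous replicates 1, 3, 4, 6 and 9 had 3643, 3822, 3802, 4562 and 4035 counts, and replicates 2, 5, 7 and 8 had 6, 7, 2 and 1. The groups overlapped for this gene too, with 1 wild-type and 5 heterozygous libraries in the upper range. On the scaled measure, the upper range ran from 201 to 524 CPM and the lower range from 0.0521 to 0.378 CPM, where a floor of 3 counts was between 0.156 and 0.184 CPM. The gap was 8.68 on the log2 CPM scale, or 74.6% of the spread. The lowest upper library, heterozygous replicate 1, had 531 times the level of the highest lower library, wild-type replicate 3 (exact 95% counting interval 258 to 1322). Every estimated count of cyp7a1 was a whole number within 0.001, as they are when no read is divided with another gene. This did not hold for ddc, whose counts were not whole in any lower library. Its counts carry at most 6 digits, so upper values such as 112612 could show no decimals. The upper and lower libraries cannot be compared in this respect. Some reads of ddc had thus been divided among transcripts.

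**Figure D1:**
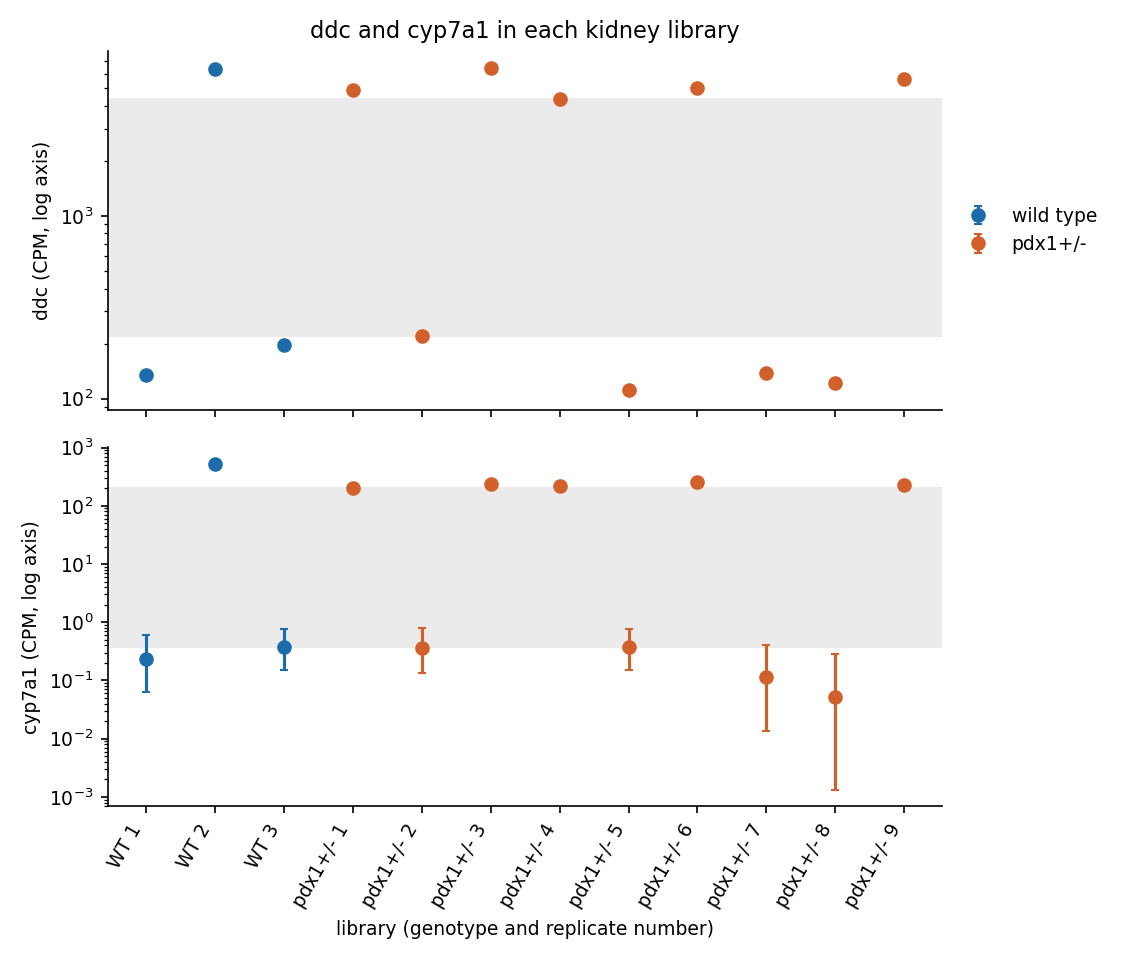
Level of ddc (top) and cyp7a1 (bottom) in CPM on log axes for each of the 12 libraries, 3 wild type (blue) and 9 pdx1+/- (orange); bars are exact 95% Poisson counting intervals, smaller than the points for high counts, and the grey band is the gap between the ranges. The same 6 libraries lie above the band for both genes, at 4332 CPM or more of ddc and 201 CPM or more of cyp7a1.

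Wild-type replicate 2 and heterozygous replicates 1, 3, 4, 6 and 9 formed the upper range of both genes, and the other 6 libraries formed the lower range of both. Within the upper range the order of libraries differed between the genes. From high to low, ddc ran through heterozygous replicate 3, wild-type replicate 2 and heterozygous replicates 9, 6, 1 and 4. For cyp7a1 the order was wild-type replicate 2, then heterozygous replicates 6, 3, 9, 4 and 1. Wild-type replicate 2 had 524 CPM of cyp7a1, while the 5 heterozygous libraries of this range lay between 201 and 254 CPM. The counting intervals of heterozygous replicates 3, 9 and 4 overlapped from each neighbour to the next for cyp7a1. In the lower range the intervals of all 6 libraries overlapped, so their order of cyp7a1 was not detectable at this depth. Because 2 clusters of libraries would fix any pooled correlation, none is given. Per length, cyp7a1 was from 7.96% to 17.9% of the ddc level in TPM in the upper libraries, with the highest value in wild-type replicate 2. In the lower libraries it was 0.741% or less.

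**Figure D2:**
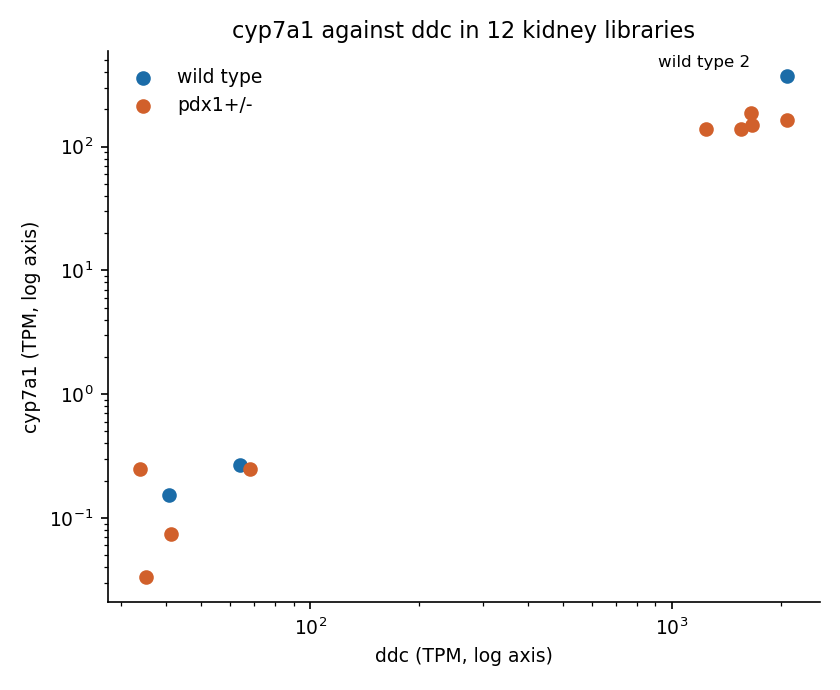
TPM of cyp7a1 against TPM of ddc on log axes, 1 point per library, wild type in blue and pdx1+/- in orange. The points form 2 clusters, 1 with 1245 to 2086 TPM of ddc and 140 to 374 TPM of cyp7a1, the other with 33.9 to 68.3 TPM of ddc and 0.269 TPM of cyp7a1 or less, and wild-type replicate 2 has the most cyp7a1.

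The ranges did not go with a change in the effective length used to turn counts into TPM. That length comes from the quantification, so it could not show transcripts cut short or otherwise altered. The effective length of ddc relative to the other genes of its library, taken from the ratio of counts to TPM, was between 1.73 and 1.74 in every library. For cyp7a1 it was between 0.787 and 0.790 in the upper libraries.

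Both ranges of both genes were present in each genotype, which the choice of the pair required, so the genotype test of these values adds no independent evidence. Mean ddc in the 3 wild-type libraries was 2241 ± 3594 CPM (SD). It was 2983 ± 2752 CPM (SD) in the 9 pdx1+/- libraries. Its log2 fold change was 0.41 ± 1.505 (SE), with an approximate 95% interval from -2.54 to 3.36 (edgeR quasi-likelihood test over 23732 genes, Benjamini-Hochberg adjusted p = 0.999). Mean cyp7a1 was 175 ± 302 CPM and 127 ± 121 CPM (SD) in the same groups. Its log2 fold change was -0.46 ± 2.097 (SE), with an interval from -4.57 to 3.65 (edgeR, adjusted p = 0.999). Its sign was positive in other fits, such as limma-voom, where it was 1.36. Both intervals are wide. By the same test 0.00421% of genes were called, a single one with a locus name only, LOC795699. The mutated gene pdx1 had 14, 10 and 5.6 estimated counts in the wild-type libraries. Among the heterozygous libraries 5 had 0 and the others had 8, 6.67, 10.4 and 2.

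Few kidney transcripts had a gap as wide as those of the pair. The widest gap of a gene had a median of 0.31 on the log2 CPM scale, and in 48.6% of genes it left a single library alone. Of 7752 genes with at least 3 libraries on each side of the gap, 75 had one as wide as that of ddc and 3 as wide as that of cyp7a1. The other two of those 3, pgd and zgc:162944, parted 8 libraries from 4. Among the 75 genes ddc had the highest mean level, with 2798 CPM, and the next gene had 264 CPM. Only 6 of the 75 parted the libraries into the same sets as ddc, among them cyp7a1, grm8b and f13a1a.1.

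**Figure D3:**
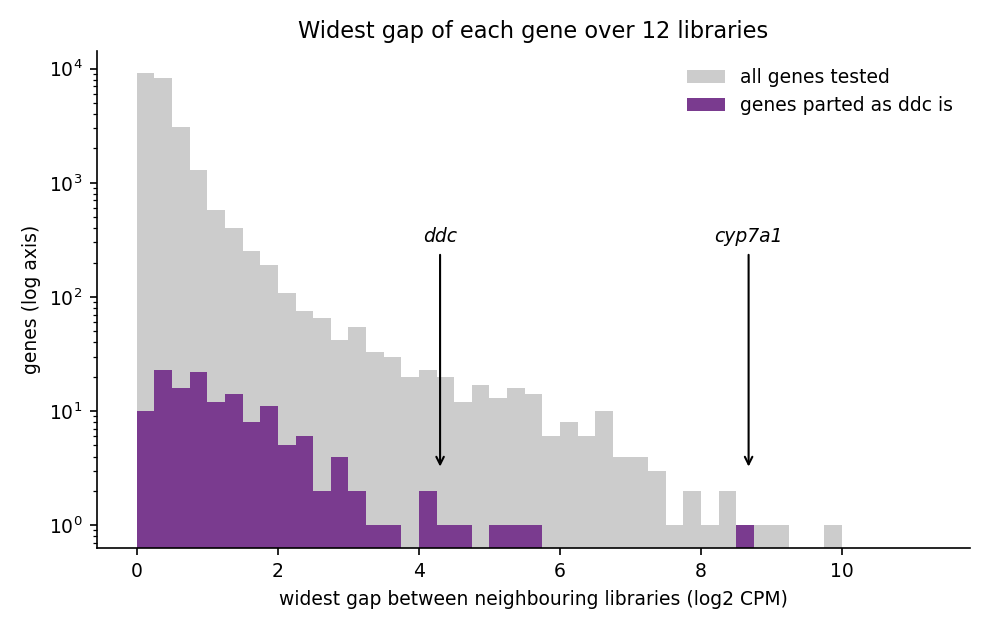
Number of genes (log axis) by the width of their widest gap between neighbouring libraries in log2 CPM, for the 23732 genes tested (grey) and the 145 whose gap parts the libraries as that of ddc does (purple). Most gaps are narrow, with a median of 0.31, and arrows mark ddc at 4.30 and cyp7a1 at 8.68.

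A total of 145 genes (0.611%), ddc and cyp7a1 included, had their widest gap between the same sets of libraries. Whatever the place of their widest gap, 1.89% of genes had every upper library above every lower one, and 0.75% had every one below. Of the 145, 116 were high where ddc was high, which is 0.489% of the genes tested, and 29 were low there, which is 0.122%. The gap was at least 1 on the log2 scale in 59 of the 116 and in 15 of the 29. These sets hold 1 of 3 wild-type and 5 of 9 heterozygous libraries on 1 side, so a genotype difference was nearly shut out by the way the 145 were chosen. edgeR and DESeq2 called 0 of them between the genotypes, and 0 had an unadjusted edgeR p under 0.05, beside 5.68% of all genes, and nothing is read from this.

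Genes of amine metabolism were among those that went with ddc. The gene mao encodes the monoamine oxidase that breaks down dopamine and serotonin. Its level was 163, 2149 and 117 CPM in wild-type replicates 1 to 3. Heterozygous replicates 1, 3, 4, 6 and 9 had between 1009 and 1282 CPM of mao, and replicates 2, 5, 7 and 8 between 81.0 and 151 CPM. The upper libraries of mao were those of ddc, and the sets did not overlap. aldh3a2b, a fatty aldehyde dehydrogenase, was between 234 and 527 CPM in the upper and between 63.2 and 89.1 CPM in the lower libraries. Of 33 tested members of the list of amine synthesis and breakdown, these 3 genes had this gap, with ddc chosen for it. Of all genes, 0.489% were high with this gap. Between the genotypes edgeR and DESeq2 called 0 of the 33, beside 0.00421% of all genes with edgeR and 61 of 23732 with DESeq2. An unadjusted edgeR p under 0.05 was found for 5 of the 33, beside 5.68% of all genes.

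Transcripts of th, dbh and gch1, which act at other steps around dopamine synthesis, did not part the libraries this way. Transcripts of th, the tyrosine hydroxylase that makes L-DOPA, were between 35.4 and 73.2 TPM where ddc was high and between 43.7 and 92.2 TPM where it was low. Those of dbh, which makes noradrenaline from dopamine, were between 2.64 and 16.7 TPM and between 4.14 and 9.78 TPM. The ranges of gch1, the first enzyme of the biopterin cofactor of th, overlapped as well, with 1.515 to 3.996 TPM and 1.501 to 4.17 TPM. Transcripts of slc6a2, the noradrenaline transporter, did go with ddc in part. They were between 65.6 and 175 TPM in the upper and between 25.2 and 40.6 TPM in the lower libraries, with the widest gap elsewhere. The kinase gene pdxkb, of the vitamin B6 pathway, behaved the same, with 38.8 to 111 TPM against 14.03 to 27.3 TPM.

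Among enzymes of aromatic amino acid breakdown, 1 of 22 tested had the gap of ddc, where 0.489% of all genes were high with it. It was kynu, the kynureninase of tryptophan breakdown, with 95.8 to 137 CPM in the upper and 24.6 to 53.8 CPM in the lower libraries. pah, phenylalanine hydroxylase, was between 129 and 270 TPM where ddc was high and between 56.3 and 116 TPM where it was low, so the sets did not overlap. In CPM, 4 of the 22 had every upper library above every lower one, and 0 were below. These were pah, kmo, kynu and haao. The shares over all genes were 1.89% and 0.75%. Of 19 tested carriers of aromatic amino acids, slc6a14 alone had the gap, at 13.4 to 31.2 CPM against 1.46 to 5.76 CPM. edgeR and DESeq2 called 0 members of either list between the genotypes, beside 0.00421% of all genes with edgeR and 61 of 23732 with DESeq2. At an unadjusted edgeR p under 0.05 were 2 and 1, beside 5.68% of all genes.

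Of 30 tested genes of bile acid synthesis, 3 had the gap of ddc with the upper side high, beside 0.489% of all genes, and cyp7a1, chosen for it, is 1 of the 3. Between the genotypes edgeR and DESeq2 called 0 of the 30, beside 0.00421% of all genes with edgeR and 61 of 23732 with DESeq2. An unadjusted edgeR p under 0.05 was found for 2 of the 30, beside 5.68% of all genes. Beside cyp7a1 the genes with the gap were cyp27a3, of the family of sterol side-chain hydroxylases, and acox3, a peroxisomal acyl-CoA oxidase. Levels of cyp27a3 were 5.20, 137 and 3.45 CPM in wild-type replicates 1 to 3. In the heterozygous libraries cyp27a3 was between 32.5 and 59.09 CPM in the upper set and between 2.40 and 8.03 CPM in the lower set. Levels of acox3 were between 349 and 705 CPM and between 68.6 and 141 CPM. Both followed the split without overlap, and wild-type replicate 2 was highest for each.

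The paralogue cyp7a1b (Entrez 559097) did not follow cyp7a1. Its levels were 48.6, 23.3 and 59.09 TPM in wild-type replicates 1 to 3. The other upper libraries had between 26.1 and 41.5 TPM of cyp7a1b and the other lower ones between 30.7 and 47.1 TPM, so the sets overlapped. In wild-type replicate 2, the library with the most cyp7a1, cyp7a1b was lowest of the 12. In the lower libraries cyp7a1b was thus the paralogue with the higher level per length. Estimated counts of cyp7a1b were whole in 1 library only, so some of its reads had been divided among transcripts. cyp7b1, the hydroxylase of the alternative pathway, was between 4.07 and 6.76 TPM in the upper and between 3.52 and 6.85 TPM in the lower libraries and overlapped too.

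Of 25 tested genes of bile acid transport and sensing, slc51a alone had the gap of ddc, beside 0.489% of all genes. It encodes a subunit of the basolateral carrier that exports bile acids and steroids. It was 11.28, 165 and 11.98 CPM in wild-type replicates 1 to 3, between 77.7 and 108 CPM in the upper heterozygous libraries and between 11.8 and 16.7 CPM in the lower. Between the genotypes edgeR and DESeq2 called 0 of the 25, beside 0.00421% of all genes with edgeR and 61 of 23732 with DESeq2. An unadjusted edgeR p under 0.05 was found for 1 of the 25, beside 5.68% of all genes. The bile salt export pump abcb11a did not overlap either, with 25.5 to 68.1 TPM against 9.32 to 19.3 TPM. The opposite held for slco2b1, an organic anion transporter, with 19.6 to 24.1 TPM in the upper and 24.9 to 40.8 TPM in the lower libraries. The phospholipid carrier gene abcb4 was also lower without overlap in CPM, while its TPM values of 12.1 to 22.3 and 21.0 to 28.9 overlapped. The receptor gene nr1h4, the bile acid sensor FXR, did overlap, with 6.26 to 11.5 TPM and 5.84 to 9.10 TPM.

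All 4 genes of the slco1f family of organic anion transporters had the gap of ddc, a group chosen after its values were seen. slco1f4 was the most abundant, between 315 and 501 TPM in the upper and between 42.2 and 126 TPM in the lower libraries. slco1f2 was between 78.7 and 229 TPM against 4.34 to 17.6 TPM. Estimated counts of this family were not whole in any library, so some of their reads had been divided among transcripts, and the share of each gene is uncertain. None of the 37 tested genes of cholesterol synthesis and uptake had the gap, beside 0.611% of all genes.

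By width of gap, the 12 followers on the high side that met the naming rule were grm8b, dio2, acot16, ahr1a, grik1a, atp8b3, mao, acot17, hsd17b3, slco1f3, slco1f2 and allc. dio2 encodes the deiodinase that activates thyroid hormone. It had 5.49, 1127 and 4.21 CPM in wild-type replicates 1 to 3, between 307 and 550 CPM in the upper heterozygous libraries and between 3.85 and 19.1 CPM in the lower ones. Its sets lay far apart, and wild-type replicate 2 stood highest. grm8b, a metabotropic glutamate receptor, was between 11.4 and 25.9 CPM in the upper and at most 0.245 CPM in the lower libraries. hsd17b3, which in mammals makes testosterone in the testis, was at least 14.7 CPM in the upper and between 1.72 and 2.77 CPM in the lower libraries. ahr1a, an aryl hydrocarbon receptor, was the most uneven within the upper set, where it ran from 5.73 CPM in heterozygous replicate 6 to 84.9 CPM in wild-type replicate 2. Its lower libraries had between 0.214 and 0.565 CPM.

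The acyl-CoA thioesterase genes acot16 and acot17, and acot18 outside the naming rule, shared the gap. Their relatives acot11a, acot11b, acot12, acot13, acot14 and acot19 did not have it. acot17 was between 420 and 1287 CPM in the upper and between 11.27 and 73.7 CPM in the lower libraries. Its estimated counts were not whole in any library, as were those of acot16 and acot18. The sulfotransferase genes sult2st1 and sult2st2 and the ferredoxin gene fdx1 also had the gap and were picked after their values were seen. Their relative sult2st3 did not have it, with 2.47 to 7.38 TPM in the upper and 4.10 to 9.81 TPM in the lower libraries. fdx1, which passes electrons to mitochondrial P450 enzymes, was between 143 and 487 TPM in the upper and between 26.9 and 35.4 TPM in the lower libraries. Its relative fdx1b overlapped, with 5.82 to 52.4 TPM and 1.33 to 33.75 TPM. Counts of fdx1 were whole in all 12 libraries, while those of sult2st1 and sult2st2 were not whole in any.

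On the other side, 12 named genes were low where ddc was high: f13a1a.1, fasn2, f13a1a.2, slc22a16, ugt5g1, eevs, eif4ebp3, arl3l2, kbtbd11, msraa, gpcpd1 and rin3. f13a1a.1, a gene for the A subunit of coagulation factor XIII, had 295, 3.41 and 519 CPM in wild-type replicates 1 to 3. The upper heterozygous libraries had between 2.15 and 4.57 CPM of f13a1a.1, and the lower ones between 223 and 834 CPM. The neighbouring copy f13a1a.2 was between 0 and 0.568 CPM against 6.90 to 31.5 CPM, and f13a1b had a narrow gap at the same place. Estimated counts of f13a1a.1 were whole in 1 library only, so some of its reads had been divided among transcripts. fasn2 was between 0.551 and 2.38 CPM where ddc was high and between 45.2 and 125 CPM where it was low. eevs, an enzyme of the sunscreen compound gadusol in fish, was between 0 and 0.551 CPM and between 2.33 and 35.6 CPM. The gaps of msraa, gpcpd1 and rin3 were narrow, from 0.39 down to 0.26 on the log2 scale. f13a1a.1 was also the only one of 14 tested thrombocyte markers with this gap, beside 0.122% of all genes low where ddc was high.

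**Figure D4:**
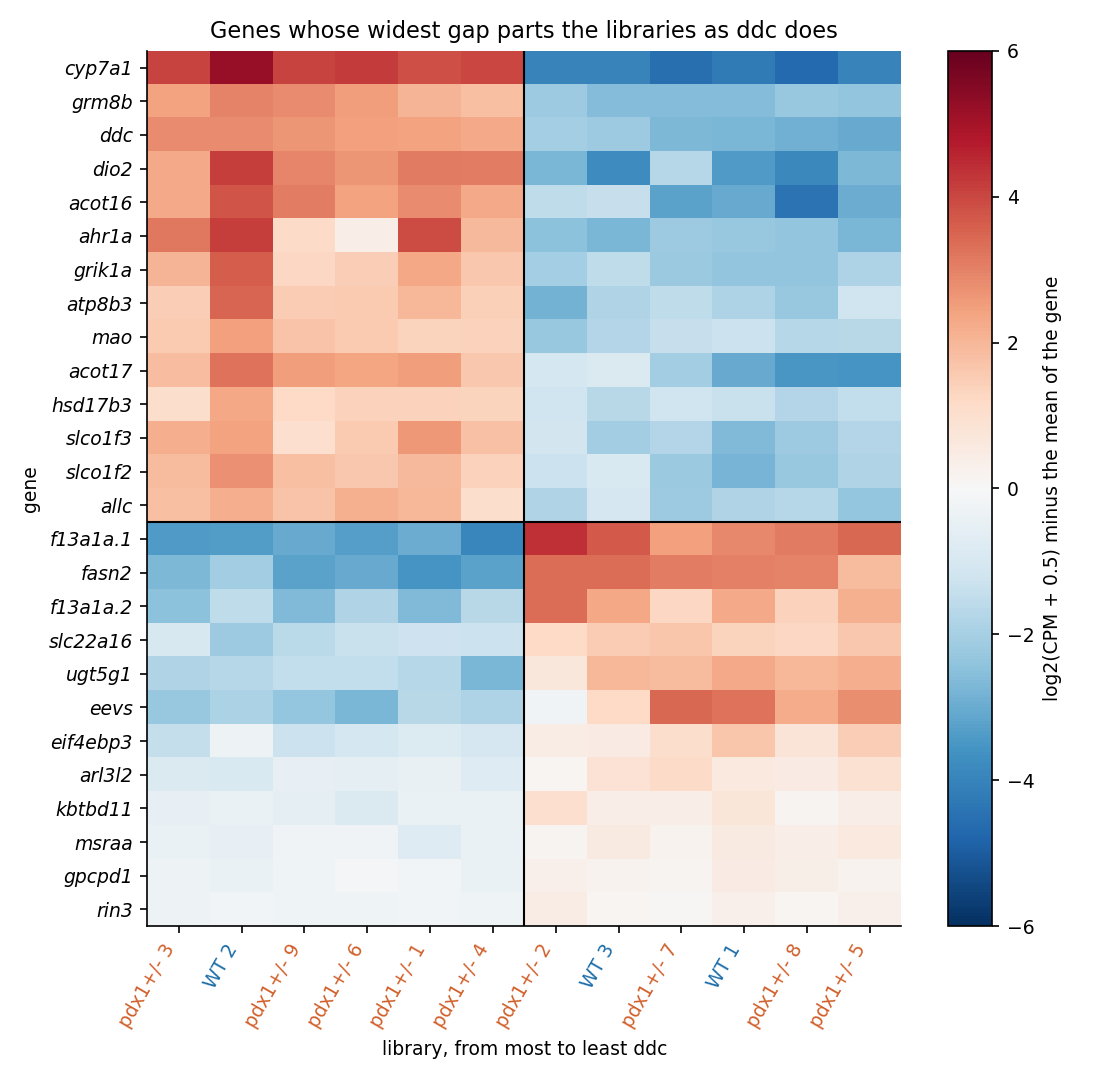
Centred level, log2(CPM + 0.5) minus the mean of the gene, of ddc, cyp7a1 and the 24 named followers (rows, by width of gap on each side) in the 12 libraries (columns, from most to least ddc; wild type in blue letters, pdx1+/- in orange). The 6 upper libraries at the left are high for the 14 genes above the line and low for the 12 below it, and both genotypes appear on each side.

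Among the 116 genes on the high side, ddc was one of the more even within the upper libraries. The ratio of the highest to the lowest upper library had a median of 1.95 and reached 14.8 for ahr1a, and 23 genes had a smaller ratio than the 1.49 of ddc. Wild-type replicate 2 was the highest of the 6 upper libraries in 73 of the 116, and in 18.6% of all genes tested. In ddc itself heterozygous replicate 3 was slightly higher.

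Genes other than the pair were also chosen within pdx1+/- alone and then read in wild type. The pair itself was chosen on all 12 libraries. Wild-type replicate 2 was the one read because it is the wild-type library with much ddc. The reading is thus a description and no independent test of the split. In the 9 heterozygous libraries alone, 190 genes (0.801%) had their widest gap between the sets of ddc with the upper side high. Without ddc and cyp7a1 these were 188, and wild-type replicate 2 was the highest wild-type library in 174 of them, or 92.6%. Over all genes tested it was highest in 35.6%. A total of 65 genes (0.274%) were parted the opposite way, and in 45 of them, or 69.2%, wild-type replicate 2 was the lowest wild-type library, as it was in 8579 of the 23732 genes. Of those with a gap of at least 1 on the log2 scale, it followed in 65 of 66 and in 17 of 17. By at least 1 on that scale wild-type replicate 2 stood apart in 61 of the 66 and in 15 of the 17, while 3.77% and 3.08% of all genes did so. For ddc and cyp7a1 themselves the wild-type gaps were 5.02 and 10.1, values that the choice of the pair had used. Genes vary together within a library and are not independent, and a single wild-type library lay on the upper side.

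**Figure D5:**
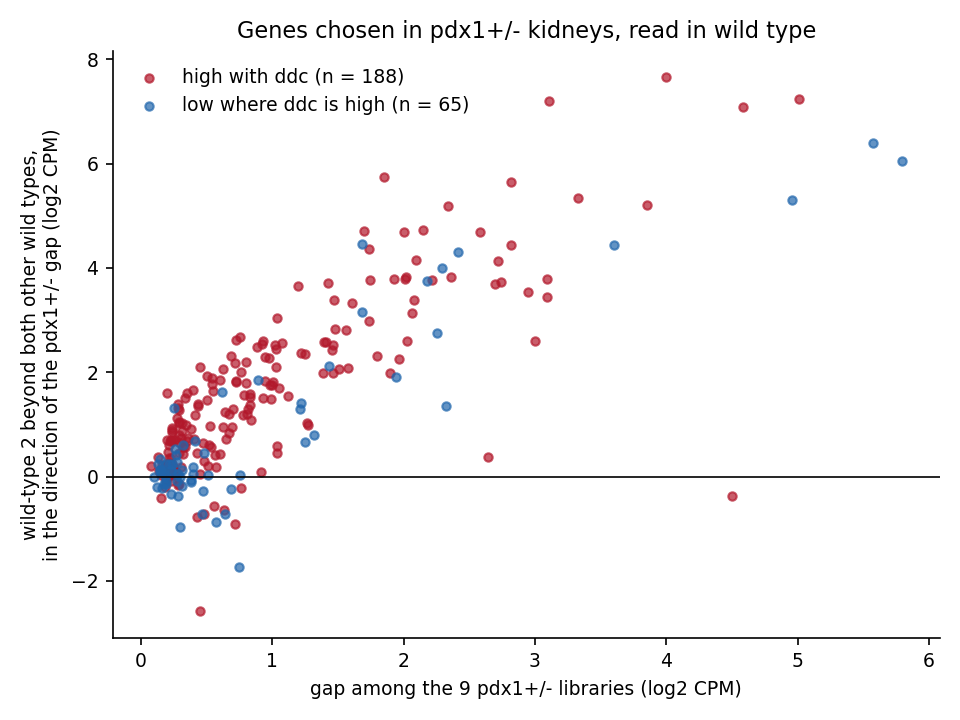
Genes whose widest gap among the 9 pdx1+/- libraries lies between the sets of ddc, without ddc and cyp7a1: width of that gap (x, log2 CPM) against the distance of wild-type replicate 2 beyond both other wild-type libraries in the same direction (y, log2 CPM), red for 188 genes high with ddc and blue for 65 low where ddc is high. Points above 0 follow the direction, 174 of the red and 45 of the blue.

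Genes next to the pair did not share the gap. The 3 tested genes on each side of ddc in the RefSeq order were pomgnt2, gask1a, entpd3, grb10b, cobl and ccr2, and those around cyp7a1 were rab2a, ca8, tox, fam110b, pimr67 and selenof. None of the 12 parted the libraries as ddc did, beside 0.611% of all genes, so nothing is read from their absence. Only tox did not overlap, with 6.87 to 17.4 CPM where cyp7a1 was high and 4.49 to 6.25 CPM where it was low. Of all genes, 1.89% lay above in this way and 0.75% below. In that assembly ddc lies on chromosome 16 and cyp7a1 on chromosome 2. Those of the 145 genes that the table placed lay on 25 chromosomes. Chromosome 4 held the most, 18 of its 1072 tested genes, beside 0.611% of all genes. Chromosomes 21 and 9 came next, with 11 of 814 and 11 of 739 tested genes, and nothing is read from this order.

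Markers of tissues that may adhere to a dissected kidney, and of the kidney itself, were read beside these genes. Their part in the ranges was not tested. None of 21 tested hepatocyte markers had the gap of ddc, beside 0.611% of all genes, so a list this short says little. A single one, f2, had every upper library above every lower one in CPM, as 1.89% of all genes did, and 0 were below. The summed hepatocyte markers were between 360 and 2272 TPM in the upper and between 324 and 437 TPM in the lower libraries, with the highest value in heterozygous replicate 4. Without that library the upper maximum was 639 TPM, in wild-type replicate 2. Heterozygous replicate 4 had 140 TPM of cyp7a1, at the low end of the upper range. fabp10a, the liver fatty acid binding protein, was between 53.7 and 329 TPM in the upper and between 87.2 and 150 TPM in the lower libraries. Summed intestine markers were between 1189 and 2159 TPM in the upper and between 937.5 and 1593 TPM in the lower libraries. Exocrine pancreas markers summed to between 133.4 and 232.3 TPM and between 193.9 and 520.9 TPM, so both overlapped. Of the kidney itself, summed interrenal and chromaffin markers were between 211 and 767 TPM and between 145 and 653 TPM. Proximal tubule markers summed to between 6450 and 8178 TPM and between 4413 and 7847 TPM, and these ranges overlapped over the 12 libraries. Within pdx1+/- they did not, with 6450 to 7623 TPM in the upper and 4413 to 5806 TPM in the lower libraries, and wild-type replicate 2, with 8178 TPM, was above the other two of its group. The sum of the tubule markers was thus higher where ddc was high within pdx1+/-. Abundant members weigh most in such a sum. Of the 50 tested, 6 had every upper library above every lower one in CPM over both genotypes, and 0 were below. Wild type had a single upper library, and its replicates 1 and 3 had 7847 and 6551 TPM. Of 50 tested tubule markers, slc34a1b, a phosphate cotransporter, alone had the gap, beside 0.489% of all genes high with ddc.

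Of the 18 marker lists, the summed level of 1 lay above and of 1 below without overlap in the upper libraries. Multiciliated cell markers summed to between 204 and 242 TPM in the upper and between 166 and 202 TPM in the lower libraries. Thrombocyte markers summed to between 284 and 330 TPM and between 381.3 and 624.6 TPM. Without f13a1a.1 the thrombocyte sums overlapped, at 283 to 329 TPM and 303 to 398 TPM. The part of these cells in the ranges was not tested.

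The labels give no sex, and genes tied to it were read as well. None of the 3 tested ovary or 12 tested testis markers had the gap, beside 0.611% of all genes, so nothing is read from these short lists. Of 23 tested genes of sex steroid action, hsd17b3 alone had it, beside 0.489% of all genes high with ddc. esr2b, an estrogen receptor gene, did not overlap either, with 10.03 to 22.4 TPM in the upper and 6.12 to 10.01 TPM in the lower libraries. vtg3, a yolk protein gene, was low throughout, between 0 and 0.11 TPM in the upper and between 0.25 and 3.31 TPM in the lower libraries. In CPM, 2 of the 23 had every upper library above every lower one, hsd17b3 and esr2b. Only vtg3, 1 of the 23, had every one below. The shares over all genes were 1.89% and 0.75%, and the other members of the list overlapped. The androgen receptor gene ar was between 15.7 and 31.4 TPM and between 14.1 and 22.02 TPM and overlapped. The part of sex in these ranges was not tested.

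Depth and the share of ribosomal RNA overlapped between the 2 sets of libraries, and the share of mitochondrial genes did so only over both genotypes together. Totals ran from 16041392 to 18222494 estimated counts in the upper set and from 17192503 to 19483852 in the lower. Ribosomal RNA genes took 5.59% to 9.10% and 4.10% to 8.59% of counts, and mitochondrial genes 5.39% to 7.39% and 3.88% to 6.23%. Within pdx1+/- the mitochondrial share was 5.39% to 5.99% in the upper and 3.88% to 5.28% in the lower libraries. In wild type it was 7.39% in replicate 2 and 5.13% and 6.23% in the others. This share was higher where ddc was high within pdx1+/-, while wild type had a single upper library. Its part in the ranges was not tested. Heterozygous replicate 2 stood apart by 66290 TPM of klf2a, against 702 to 1257 TPM in the other libraries. Without it the gap of ddc was 4.46 and that of cyp7a1 stayed between the same libraries, while 262 genes in place of 145 parted the libraries as ddc did, 175 high and 87 low.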

How the data were processed

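Total RNA of adult zebrafish kidney was sequenced in 12 libraries, 3 wild type and 9 pdx1+/-. Trim Galore 0.6.4 was used for trimming and kallisto, with 0.4.6 as its listed version, for quantification on build GRCz11, per the submitters' processing notes. Annotation, settings and the summing over transcripts are not given in the sources used here. For each library the authors deposited 1 file of estimated counts and 1 of TPM values, both for 30238 Entrez IDs. The estimated counts, as deposited, were not normalized. The deposited TPM values are scaled for library size and transcript length, and they were used for levels between genes and for alternatives.

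Symbols came from a RefSeq table of another assembly, GRCz12tu, which named 25812 IDs and was used for names, chromosomes and the order of neighbours only. In R 4.3.3, the rounded counts were filtered with filterByExpr (edgeR 4.0.16, minimum count 10), which left 23732 genes. Genotypes were compared by the edgeR quasi-likelihood test with TMM scaling and no covariate, with Benjamini-Hochberg adjustment and a threshold of 0.05. Standard errors are the fold change over the square root of F. The widest gap of a gene was the largest step between neighbouring libraries in sorted log2 CPM (prior count 2). A follower is a gene whose widest gap parts the libraries as that of ddc does.

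Up to 12 followers a side were named, by width of gap, with a mean CPM of at least 2 and a proper symbol rather than a clone or locus name, beside the 3 tested neighbours on each side. Of 31 gene lists, members with the gap and up to 4 of highest mean TPM could be named. Other names were picked with their values in view. The pair, the rule and the lists were chosen with earlier results of these data known. Alternatives were other scalings, filters and prior counts, DESeq2 1.42.0, limma 3.58.1 (voom, and trend on TPM), a replicate block and each library left out in turn. On simulated data for the genotype comparison of 23732 genes, 94% of 200 genes changed 4-fold were called, and 100% of 200 planted gaps were recovered. Both kinds were planted in well-counted genes, and the planted gaps were wide with little scatter. Narrow gaps and low counts were not covered. Intervals and floors (3 counts) cover counting error only.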

Additional observations from a re-analysis of the deposited data

How the results depend on the processing

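The gap of ddc lay between the same libraries in all 18 alternatives, at 4.17 to 4.46 on the log2 scale, and that of cyp7a1 in all 18, at 6.80 to 8.95. The lowest value, 6.80, came from log2(TPM + 1), where the added 1 exceeds the lower levels of cyp7a1. With each library left out in turn, the gaps were 4.28 to 4.46 for ddc and 8.67 to 8.82 for cyp7a1. Over other scalings, filters, prior counts and TPM, 128 to 149 genes parted the libraries as ddc and cyp7a1 do. With a library left out the counts were 153 to 262, where fewer libraries have to match, and 262 came without heterozygous replicate 2, of them 175 high and 87 low. Between 20 and 24 of the 24 named followers kept the split. Of all followers, the fewest kept it with log2(TPM + 1), 94 of 116 on the high side and 17 of 29 on the low side.

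The genotype comparison called 61 genes with DESeq2 (43 higher and 18 lower in pdx1+/-), 3 with log2(TPM + 0.1), and 1 to 4 with a library left out (2 without heterozygous replicate 2 and 4 without replicate 5). The cause was not tested. For cyp7a1 the sign of the genotype log2 fold change turned with limma-voom (1.36), log2(TPM + 1) (1.104) and log2(TPM + 0.1) (1.39). With a library left out it ran from -1.05 to 8.66, where 8.66 came without wild-type replicate 2, the only upper wild-type library. That of ddc ran from -0.14 to 4.17 and was -0.14 when wild-type replicate 1 or 3 was left out. The lowest adjusted p of the pair was 0.662, and no alternative called either gene. The replicate block gave 0 calls and a cyp7a1 value of 6.87 (adjusted p = 0.85). Replicate numbers did not pair the samples, with correlations of same-numbered deviations of -0.22, -0.16 and 0.10. Counting depth limits cyp7a1 in the lower libraries, with 1 to 7 counts each.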

Other observations

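Counting those with the gap of ddc, 449 genes (1.89%) had every upper library above every lower one in CPM, and 178 (0.75%) had every upper library below. Among 34 tested epithelial transcription factors, 6 were above and 0 below: hnf1bb, hnf4g, pparab, ahr1a, irx3b and pax2a. hnf4g, a nuclear receptor of gut and kidney epithelium, was between 20.2 and 30.5 TPM in the upper and between 15.9 and 18.9 TPM in the lower libraries. Its relative hnf4a overlapped, with 41.6 to 71.0 TPM and 28.9 to 43.8 TPM. Of 50 tested proximal tubule markers 6 were above and 0 below, and of 30 endothelial markers 0 were above and 2, mrc1a and she, below. Of 34 multiciliated cell markers 4 were above, foxj1b, dnah9, ccdc40 and cfap52. No member of the lists for erythrocytes, neutrophils, macrophages, T and NK cells or B cells was above or below. The sums of these lists also overlapped over the 12 libraries. Neutrophil markers summed to between 2447 and 3782 TPM in the upper and between 3528 and 7310 TPM in the lower libraries. Their lowest lower library was heterozygous replicate 2, and the next was replicate 7 with 4228 TPM. The part of these cells was not tested. The amine list had 5 of 33 above, ddc included, where aanat2, an enzyme of melatonin synthesis, ran from 1.54 to 13.1 TPM against 0.64 to 1.48 TPM. These genes were picked after their values were seen, and the sets of libraries come from ddc itself, so no test is given.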
